A study of Mus musculus with 6 samples.

Results

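The genes described here are 45 interferon-stimulated and antigen presentation genes of the mouse, taken by symbol from a table of counts for 24516 genes, in which all 45 were found. Of these, 44 were among the 13427 genes that passed a filter on low counts and were tested; the other, Mx1, had 0 to 7 counts per library. They comprise 8 sensors or RNA-modifying enzymes of double-stranded RNA and other nucleic acids, 14 transcription factors and signalling regulators, 17 antiviral effectors and 6 genes of class I antigen presentation. The rule picks genes by name and applies no measured value, but the names were chosen with earlier results of these data known, so the counts below are a description of the list.

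RNA was sequenced from iMGT-Myh6-eGFP-MEF cells, a mouse embryonic fibroblast line in which 1 ug/mL doxycycline switches on Mef2c, Gata4 and Tbx5, the factors used to turn fibroblasts towards cardiomyocytes. On the previous day the cells had received 1 of 3 siRNAs by transfection: siControl, siJunb, directed at the gene of an AP-1 subunit, or siH1f0, directed at the gene of linker histone H1.0. Each of these 3 groups had 2 libraries, labelled as biological replicates of 1 line; whether they came from separate cultures or days is not given in the sources used here, so p-values measure the spread between these libraries. All groups carried the 3 induced factors and a transfected siRNA, and no group without siRNA was analysed here, so a response common to every siRNA cannot be seen in these comparisons. The sample labels place the harvest at day 1 after induction and the series description at day 3 after a sort for GFP-positive cells.

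Cells recognise foreign or displaced RNA through dedicated receptors. RIG-I (Ddx58) and MDA5 (Ifih1) bind double-stranded RNA in the cytosol and signal through Mavs to switch on the interferon genes, while PKR (Eif2ak2) binds it and halts translation. Secreted interferon acts on receptors that activate a complex holding Stat2 and Irf9, which binds a DNA element called the interferon-stimulated response element (ISRE), which lies near many antiviral genes. Short interfering RNAs are themselves double-stranded, and some are known to engage these sensors.

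The libraries held 48690447 to 85979630 counts, with medians of 1484 to 2682 counts per tested gene. Levels are given as CPM, counts scaled to a common library total with TMM factors, and, where genes are compared with each other, as TPM, which also divide by gene length. Junb stood at 39.1 and 35.7 CPM in siControl, 10.7 and 8.89 in siJunb and 29.98 and 31.1 in siH1f0. H1f0 stood at 798 and 743 CPM in siControl, 666 and 651 in siJunb and 51.6 and 54.4 in siH1f0. Each target was thus lowest in its own knockdown (log2 change of -1.93 for Junb, adjusted p = 1.6e-05, and of -3.86 for H1f0, adjusted p = 7.12e-09, edgeR). Genes were called at an adjusted p under 0.05 in edgeR's quasi-likelihood test, fitted to all 6 libraries and adjusted over all 13427 genes. H1f0 was also called lower in siJunb than in siControl (log2 change of -0.23, adjusted p = 0.021, edgeR). That call was lost without any 1 siJunb or siH1f0 library and with only the 4 libraries compared. Junb was not called in siH1f0 (log2 change of -0.29, adjusted p = 0.0778, edgeR). It was called lower there with no count filter and in DESeq2, and its log2 change ranged from -0.36 to -0.22 over all alternatives.

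The interferon genes themselves were not detectable at a level that could be tested. Ifnb1, the interferon gene that most cells switch on first, had 0 counts in all 6 libraries, which allows up to 0.0349 to 0.0616 CPM per library (3 counts, counting error only). Of 21 interferon genes, 16 had 0 counts in every library and none had more than 4, and their summed counts were 8 and 2 in siControl, 2 and 2 in siJunb and 3 and 6 in siH1f0. In every library more genes had a count of 2 (705 to 779) than of 1 (367 to 417), so low counts are not those of independent molecules. The upper limit given for Ifnb1 treats counts as independent, so the true limit may be higher.

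Most of the 45 genes were expressed at levels that could be tested. By TPM averaged over the 6 libraries, the highest were B2m at 3916, Ifi27 at 463 and Bst2 at 404, and the lowest of those tested were Rsad2 at 3.83, Dhx58 at 3.60 and Psmb8 at 1.25. B2m encodes the light chain shared by class I molecules, Ifi27 an interferon-induced membrane protein and Bst2 the tether that holds budding virus at the cell surface. Of the 44 tested genes, 23 lay above the median tested gene of 27.4 TPM, and their own median was 32.5 TPM. Ifi27 measured 193 and 167 CPM in siControl, 171 and 174 in siJunb and 193 and 200 in siH1f0, and Bst2 138 and 117, 110 and 113, and 108 and 111; neither was called in any comparison. Psmb8, a subunit of the immunoproteasome, measured 0.736 and 0.562 CPM in siControl, 0.368 and 0.502 in siJunb and 0.681 and 0.584 in siH1f0 and was not called either.

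**Figure D1:**
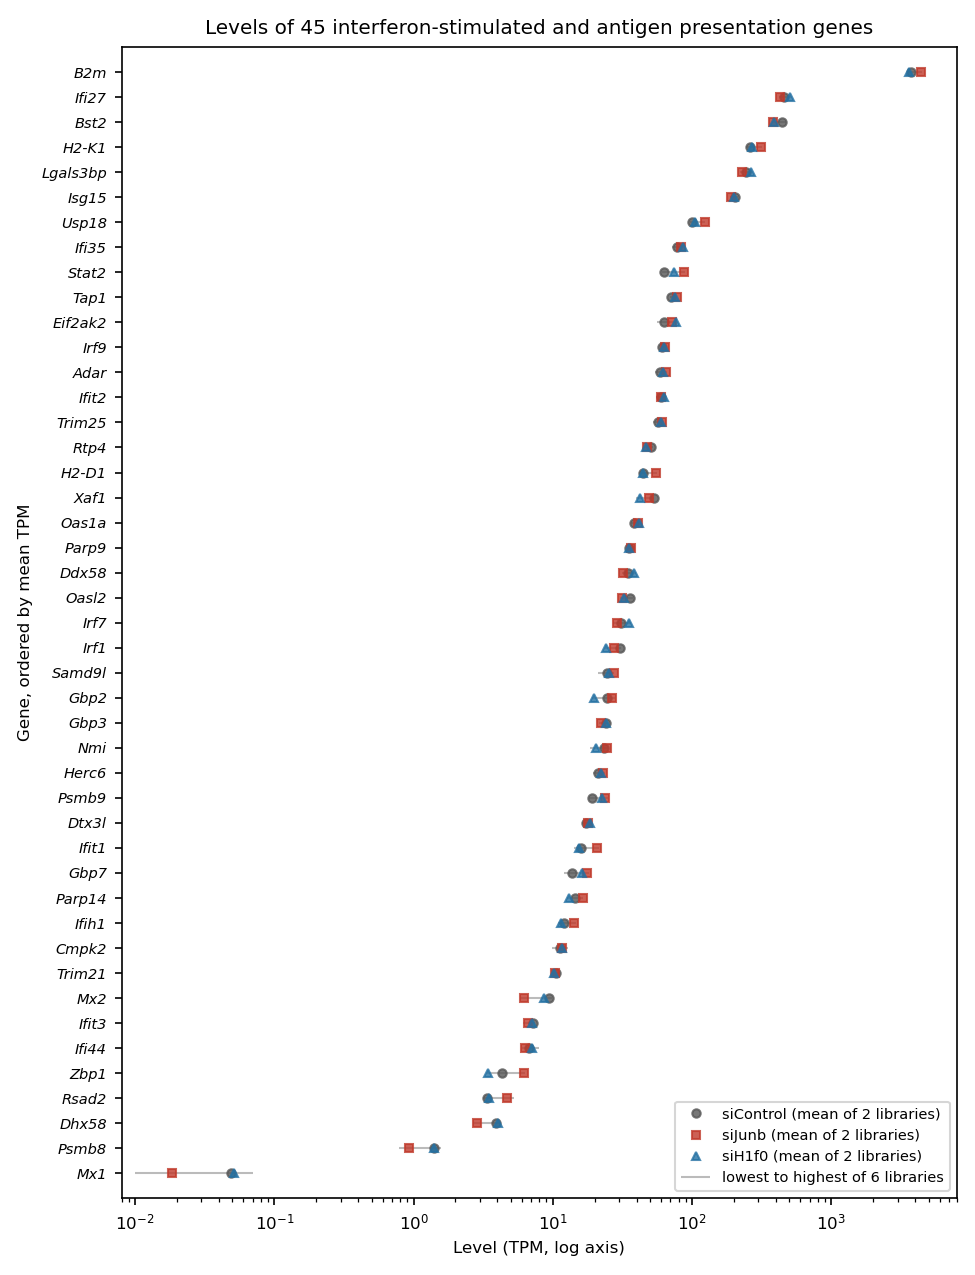
Level of each of the 45 genes in TPM (log axis) as the mean of the 2 libraries of each group, with a grey line from the lowest to the highest of the 6 libraries. The axis spans B2m near 3916 TPM down to Mx1, whose line is drawn from 0.01 because 1 library is at 0, and for most genes the 3 groups lie almost on top of each other.

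The siControl pair differed more than the other pairs, and the difference followed gene length. The median difference between replicate libraries over the 44 genes was 0.147 on the log2 scale for siControl, 0.0436 for siJunb and 0.0591 for siH1f0. Of the 15 genes under 2000 bases, 12 were higher in siControl 1 than in siControl 2, whereas all 11 genes of at least 4000 bases were higher in siControl 2. The rank correlation of the siControl 1 to siControl 2 ratio with length was -0.788 across the 44 genes and -0.531 across all 13427, against -0.057 and 0.043 for the siJunb pair and 0.447 and 0.200 for the siH1f0 pair. These are descriptions across genes, which are not independent replicates and which share the library and its RNA. Across the 44 genes the log2 change correlated with length at 0.229 for siJunb, 0.165 for siH1f0 and -0.179 between the knockdowns, and the part of RNA quality in the results was not tested.

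**Figure D2:**
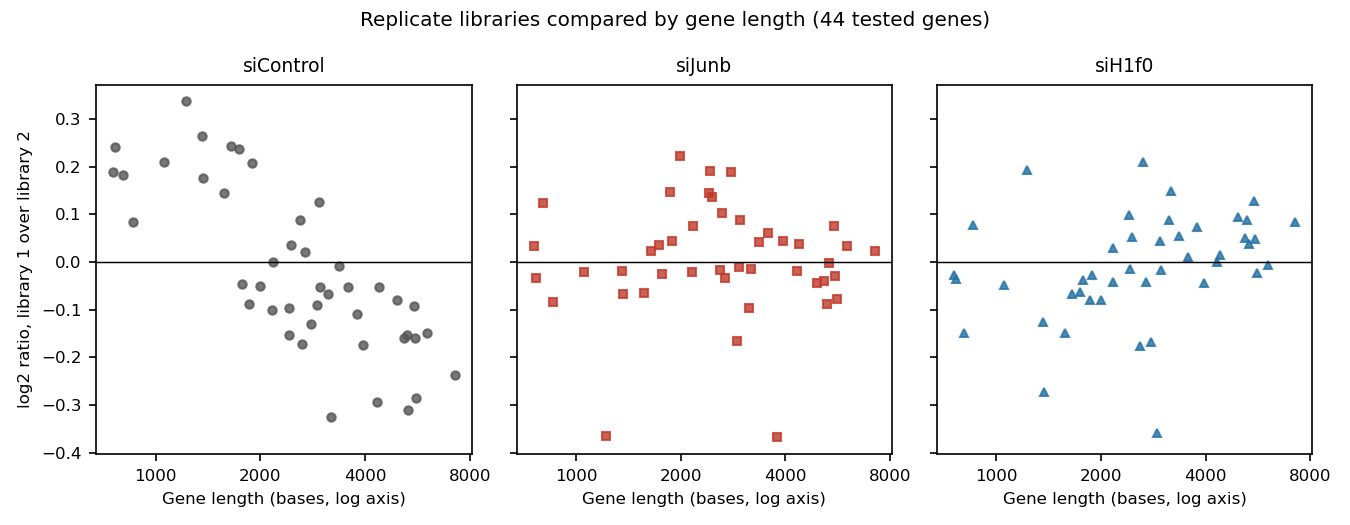
Log2 ratio of library 1 to library 2 within each group, plotted against gene length in bases (log axis) for the 44 tested genes. The siControl points slope downwards (rank correlation -0.788), whereas the siJunb points show no such slope (-0.057).

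Promoter sequence was examined for the element through which interferon acts. RefSeq windows of the GRCm38.p6 build, from 250 bases before to 50 after each start, were found for 36 of the 45 genes in 43 windows; none was at hand for Dhx58, Zbp1, Usp18, Parp9, Parp14, Mx1, Mx2, Rtp4 and Ifi27. The ISRE was searched on both strands as GAAA, any 2 bases and GAAA again, and 15 of the 43 windows held it (34.9%) against 3.44% of all 32851 windows. The longer form that ends in a further CT, and so contains the former, was in 8 windows (18.6%, against 0.271% of all). The letters TTCNNNGAA, the GAS element of interferon gamma responses, were in 9 windows (20.9%, against 8.3%), and TGANTCA, the AP-1 element, in 5 (11.6%, against 7.81%): those of Gbp2, Ifi35, Ifit3, Rsad2 and Xaf1. In Bst2 the GAS letters overlap the ISRE letters.

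The stretches below hold the ISRE letters of the sensor genes, and of the other genes with such letters that were higher in siJunb or lower in siH1f0 than in siControl; Isg15 and Oas1a are added as genes with several overlapping matches that were not called. Each is 30 bases written 5′ to 3′ on the strand named, with every match in capitals.
Ddx58, chr4:40239804-40239833, plus strand: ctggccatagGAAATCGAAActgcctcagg
Ifih1, chr2:62646206-62646235, minus strand: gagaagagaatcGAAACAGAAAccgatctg
Eif2ak2, chr17:78882535-78882564, minus strand: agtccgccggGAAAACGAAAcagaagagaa
Stat2, chr10:128270266-128270295, minus strand: ctagggaaagGAAACTGAAAccagggtgcg
Ifit1 distal, chr19:34640775-34640804, minus strand: actgagactgGAAAGTGAAActgaagcctg
Ifit1 proximal, chr19:34640794-34640823, minus strand: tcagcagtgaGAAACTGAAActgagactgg
Rsad2, chr12:26456553-26456582, plus strand: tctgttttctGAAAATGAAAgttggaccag
Gbp7, chr3:142530273-142530302, minus strand: atggagaactGAAACTGAAActgcacacac
Gbp2, chr3:142620594-142620623, minus strand: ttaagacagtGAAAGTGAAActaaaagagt
B2m, chr2:122147538-122147567, plus strand: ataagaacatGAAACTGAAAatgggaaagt
Isg15, chr4:156200871-156200900, minus strand: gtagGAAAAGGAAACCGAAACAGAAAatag
Oas1a, chr5:120907523-120907552, minus strand: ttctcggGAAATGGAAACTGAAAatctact

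Most of these lie upstream of the start, from 213 to 222 bases before it in Stat2 to 5 to 20 in Oas1a, whereas in Ddx58, Ifih1 and Eif2ak2 they lie just after it. Of the 10 genes called higher in siJunb than in siControl, 8 had a window and 6 of these held the ISRE letters (Ifih1, Stat2, Ifit1, Rsad2, Gbp7 and B2m). Of the 18 genes called in at least 1 comparison, 13 had a window and 8 held them. Of the 26 called in none, 23 had a window and 7 held them. The GAS letters were in 2 of those 13 and 7 of those 23, and the AP-1 letters in 3 and 2. Among the 8 higher in siJunb with a window, 1 held the GAS letters and 1 the AP-1 letters. The 3 genes lower in siH1f0 than in siControl all had a window: 1 held the ISRE letters, 1 the GAS letters and 2 the AP-1 letters. A match describes the letters alone and says nothing of whether a factor was bound there in these cells.

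After the siRNA against Junb, 10 of the 44 genes rose and 1 fell relative to siControl, by less than 1.5-fold. The genes that rose were Ifih1, Zbp1, Stat2, Usp18, Ifit1, Rsad2, Gbp7, B2m, H2-K1 and H2-D1, and the gene that fell was Mx2. The share that rose was 22.7% of the tested members where 8.63% of all tested genes rose, and the share that fell was 2.27% where 7.82% of all tested genes fell (16.5% in either direction). The highest fold among those that rose was 1.47, for Zbp1. The median log2 change was 0.10 over the 44 genes and 0.00 over all genes. In 22 of the 44 both siJunb libraries were above both siControl libraries, where this held for 29.5% of all tested genes, and in 10 both were below, where this held for 28.4%. The other 33 genes ran from -0.61 to 0.35 on the log2 scale.

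The number of calls changed with each library left out. The median log2 change of the 44 genes was 0.0952 and 0.106 without siJunb 1 and siJunb 2. It was 0.0938 and 0.0935 without siH1f0 1 and siH1f0 2, and 0.0567 and 0.0937 without siControl 1 and siControl 2. The siH1f0 libraries enter the comparison of siJunb with siControl only through the shared fit, so a lost call need not reflect a smaller change. Without siJunb 1 or without siJunb 2, 1 gene was called higher; without siH1f0 1 or siH1f0 2 there were 5, without siControl 1 there were 15, and without siControl 2 there were 18. The gene that held without each of the 6 libraries was Stat2. The number called lower was 4 without siControl 1, 5 without siControl 2 and 0 without siJunb 2. All groups share the siControl libraries as reference, so the comparisons of siJunb and of siH1f0 with siControl are not independent. In bulk RNA, fewer cells of a type and less RNA per cell cannot be told apart.

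**Figure D3:**
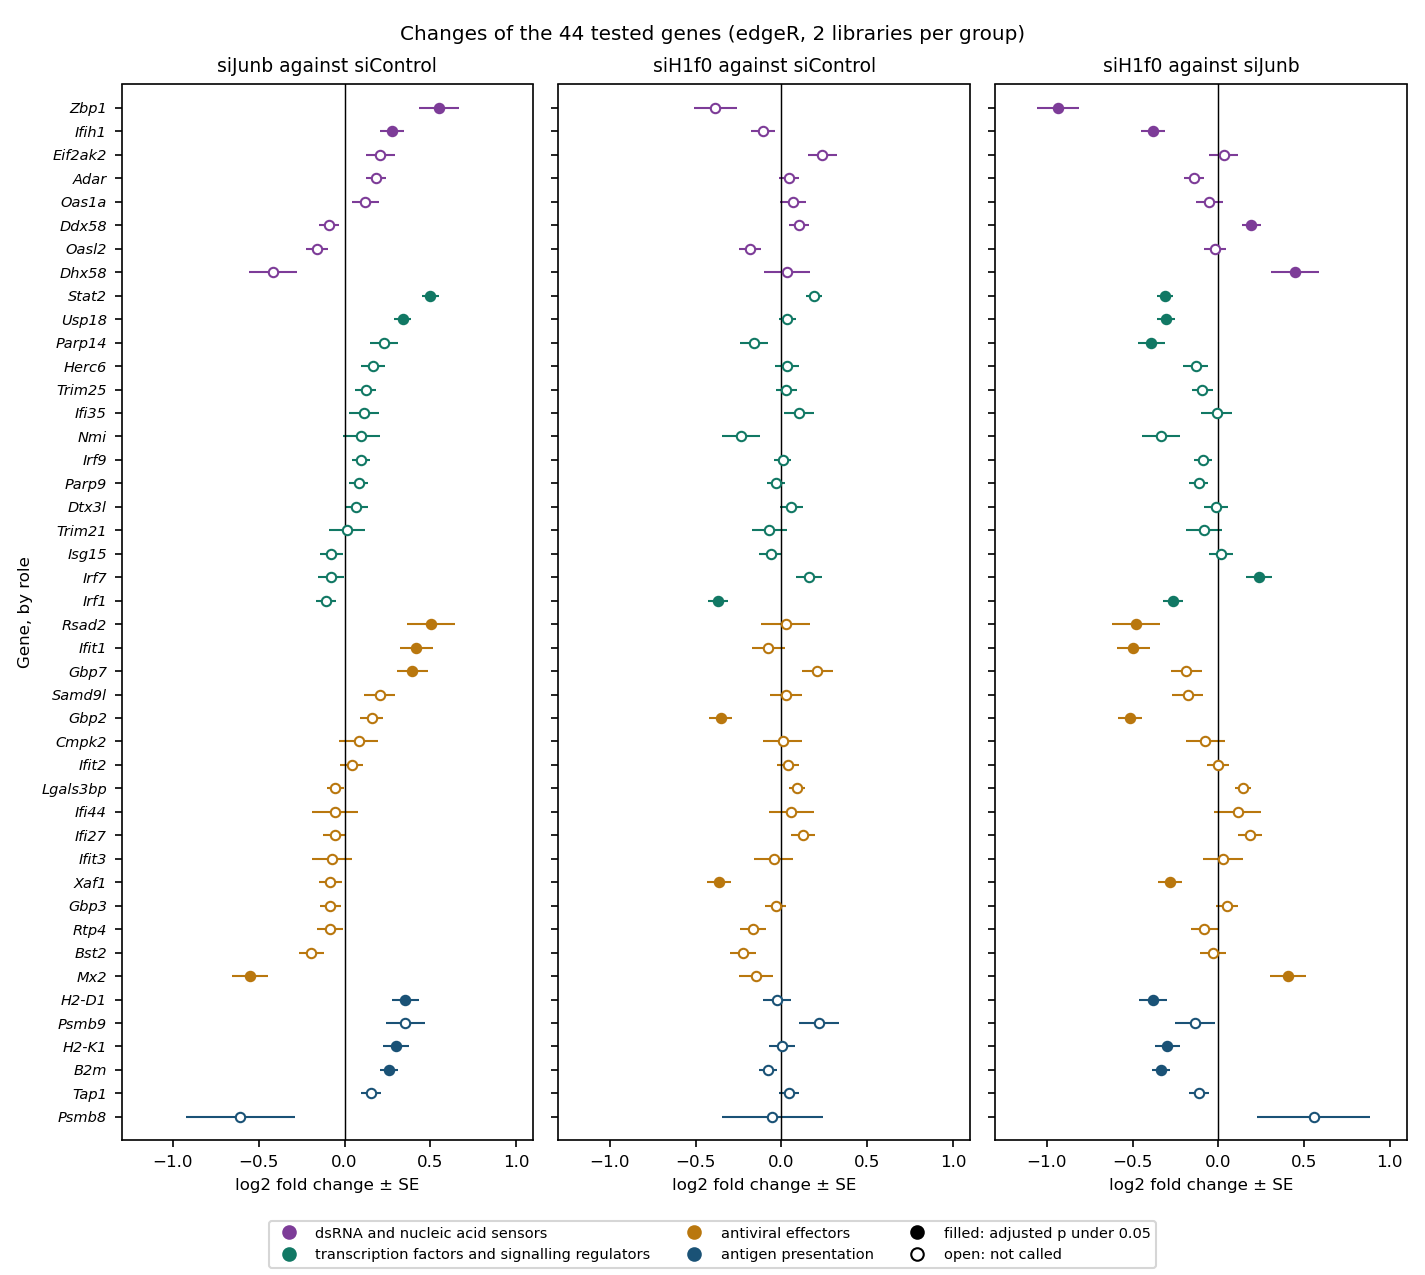
Log2 fold change with its SE for the 44 tested genes, ordered and coloured by role, in the 3 comparisons; filled points have an adjusted p under 0.05. Filled points in the siJunb panel lie mostly right of 0 (10 higher, 1 lower), those in the siH1f0 panel left of it (3 lower), and those in the siH1f0 against siJunb panel mostly left (13 lower, 4 higher).

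Among the sensors, those for double-stranded RNA did not move together in siJunb. Ifih1, the gene of MDA5, which binds long double-stranded RNA (chr2:62595618-62646255), measured 24.2 and 25.8 CPM in siControl, 31.1 and 29.5 in siJunb and 24.3 and 22.2 in siH1f0. Both siJunb libraries were above the other 4, and the rise over siControl was 0.27 ± 0.07 (log2, SE; adjusted p = 0.0309, edgeR). The call was lost with an estimate from the 4 libraries compared alone, with a replicate block (adjusted p up to 0.0635) and without any 1 of the siJunb or siH1f0 libraries (up to 0.222). Zbp1, a sensor of left-handed RNA and DNA that can trigger cell death (chr2:173206612-173218959), measured 3.403 and 3.66 CPM in siControl, 5.13 and 5.21 in siJunb and 2.66 and 2.74 in siH1f0. The groups did not overlap, and the rise in siJunb was 0.55 ± 0.12 (adjusted p = 0.0163, edgeR), lost without either siJunb library (up to 0.118).

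Ddx58, whose product RIG-I recognises short double-stranded RNA ends (chr4:40203777-40239825), measured 63.0 and 66.7 CPM in siControl, 60.0 and 61.8 in siJunb and 71.9 and 67.4 in siH1f0. It was not called against siControl in either knockdown: the log2 change was -0.09 ± 0.06 in siJunb and 0.10 ± 0.06 in siH1f0. It was called lower in siJunb without siControl 1 (adjusted p = 0.0394, edgeR) and higher in siH1f0 without siControl 2 (0.0221). Dhx58 encodes LGP2, a relative of both that lacks the signalling domain (chr11:100694884-100704271), and measured 3.33 and 3.72 CPM in siControl, 2.76 and 2.49 in siJunb and 3.72 and 3.47 in siH1f0. The siJunb libraries were the lowest, with a log2 change of -0.42 ± 0.14 that did not pass (adjusted p = 0.0749, edgeR); it did pass with no count filter and without siControl 1 (0.031 at its smallest).

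Eif2ak2, the gene of PKR (chr17:78850504-78882572), had its lowest value in siControl 1, at 92.3 CPM, against 113 in siControl 2, 118 and 119 in siJunb and 121 and 121 in siH1f0. Both knockdowns were above both control libraries, and neither change was called: 0.21 ± 0.08 in siJunb (adjusted p = 0.129, edgeR) and 0.24 ± 0.08 in siH1f0 (0.137). Both changes passed without siControl 2 and with no count filter. The remaining sensors or enzymes, Oas1a, Oasl2 and the RNA editor Adar, were not called, with log2 changes from -0.16 to 0.18 in siJunb and from -0.18 to 0.07 in siH1f0. In all, 2 of the 8 genes rose and 0 fell in siJunb, with a median of 0.15, and their summed level was 383 and 421 CPM in siControl, 436 and 436 in siJunb and 427 and 419 in siH1f0.

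Of the 14 transcription factors and signalling regulators, Stat2 and Usp18 rose in siJunb and 0 fell, with a median of 0.10. Stat2, a subunit of the interferon-activated complex (chr10:128270498-128292853), measured 103 and 107 CPM in siControl, 150 and 146 in siJunb and 120 and 119 in siH1f0. The 3 groups did not overlap, and siJunb was 1.41-fold above siControl (0.50 ± 0.05, adjusted p = 0.000512, edgeR), with an adjusted p of at most 0.0208 without any 1 library. Usp18, which removes ISG15 from proteins and damps the interferon receptor (chr6:121245906-121270917), measured 65.3 and 67.5 CPM in siControl, 83.3 and 84.8 in siJunb and 67.1 and 68.9 in siH1f0. Only the siJunb libraries stood apart, with a rise of 0.34 ± 0.05 (adjusted p = 0.00362, edgeR) that was lost without either of them (up to 0.0671).

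Irf9, of the same complex, had a log2 change of 0.10 ± 0.05 in siJunb and 0.01 ± 0.05 in siH1f0 and was not called. Irf7, which amplifies interferon production, measured 21.0 and 22.3 CPM in siControl, 21.5 and 19.4 in siJunb and 23.5 and 24.9 in siH1f0, with no call against siControl. Isg15, the ubiquitin-like modifier with 3 ISRE matches above, measured 61.9 and 54.3 CPM in siControl, 55.7 and 54.5 in siJunb and 55.1 and 56.2 in siH1f0, and the groups overlapped.

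Of the 16 tested antiviral effectors, Ifit1, Rsad2 and Gbp7 rose in siJunb and Mx2 fell, with a median of -0.05. Ifit1, which binds viral RNA caps (chr19:34640889-34650009), measured 14.8 and 16.7 CPM in siControl, 21.8 and 20.3 in siJunb and 16.1 and 13.9 in siH1f0, a rise of 0.42 ± 0.09 (adjusted p = 0.0196, edgeR). Rsad2, the gene of viperin, which makes a chain-terminating nucleotide (chr12:26442743-26456452), measured 4.56 and 4.93 CPM in siControl, 5.90 and 7.64 in siJunb and 4.95 and 4.70 in siH1f0. Its siJunb libraries were both highest but far apart, and the rise of 0.51 ± 0.14 was near the threshold (adjusted p = 0.0403, edgeR).

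Gbp7, a guanylate-binding protein gene (chr3:142530336-142550151), measured 26.1 and 31.8 CPM in siControl, 37.0 and 39.1 in siJunb and 33.1 and 33.7 in siH1f0, a rise of 0.40 ± 0.09 in siJunb (adjusted p = 0.0202, edgeR). Mx2 belongs to the family of dynamin-like antiviral GTPases, but the GRCm38.p6 table gives it, like Mx1, as a transcribed pseudogene (chr16:97536081-97560901). It went the other way at 8.27 and 8.85 CPM in siControl, 6.20 and 5.42 in siJunb and 7.68 and 7.75 in siH1f0, a fall of 0.55 ± 0.10 in siJunb (adjusted p = 0.00984, edgeR). Without single siJunb libraries these calls were lost for Ifit1 (up to 0.167) and, without siJunb 2, for Mx2 (0.105). Those for Rsad2 and Gbp7 were also lost without either siH1f0 library (up to 0.275 and 0.158) and with the 4 libraries compared alone (0.0833 and 0.0537). Ifit2 and Ifit3, neighbours of Ifit1 on chromosome 19, had log2 changes of 0.04 ± 0.06 and -0.07 ± 0.12 in siJunb. The summed level of the effectors was 867 and 848 CPM in siControl, 851 and 844 in siJunb and 848 and 861 in siH1f0.

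Of the 6 antigen presentation genes, the heavy chain genes H2-K1 and H2-D1 and the light chain gene B2m rose in siJunb and 0 fell, with a median of 0.28. B2m (chr2:122147687-122153082) measured 1241 and 1172 CPM in siControl, 1400.0 and 1483 in siJunb and 1172 and 1111 in siH1f0. H2-K1 (chr17:33996012-34000619) measured 175 and 148 CPM in siControl, 200.4 and 197 in siJunb and 158 and 166 in siH1f0. H2-D1 (chr17:35263094-35267497) measured 31.2 and 26.5 CPM in siControl, 37.4 and 36.5 in siJunb and 27.8 and 29.1 in siH1f0. For each of the 3 genes both siJunb libraries were above the other 4.

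The rises in siJunb were 0.26 ± 0.05 for B2m (adjusted p = 0.0136), 0.30 ± 0.07 for H2-K1 (0.0284) and 0.36 ± 0.08 for H2-D1 (0.0204, edgeR). The B2m call was lost without either siJunb library (up to 0.165). The H2-K1 and H2-D1 calls were lost without any 1 siJunb or siH1f0 library (up to 0.181 and 0.154) and with the 4 libraries compared alone (0.0757 and 0.0578). H2-K1 and H2-D1 are near-identical in long stretches, so how reads that match both were counted bears on their separate values. Tap1, a subunit of the peptide transporter, and Psmb9, an immunoproteasome subunit, did not pass in siJunb, at 0.16 ± 0.06 (adjusted p = 0.0986, edgeR) and 0.35 ± 0.11 (0.0674). These neighbours start 226 bases apart on opposite strands, their RefSeq windows share 275 bases, and their exons share 212 bases, so without a stated strand setting their reads cannot be fully separated.

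**Figure D4:**
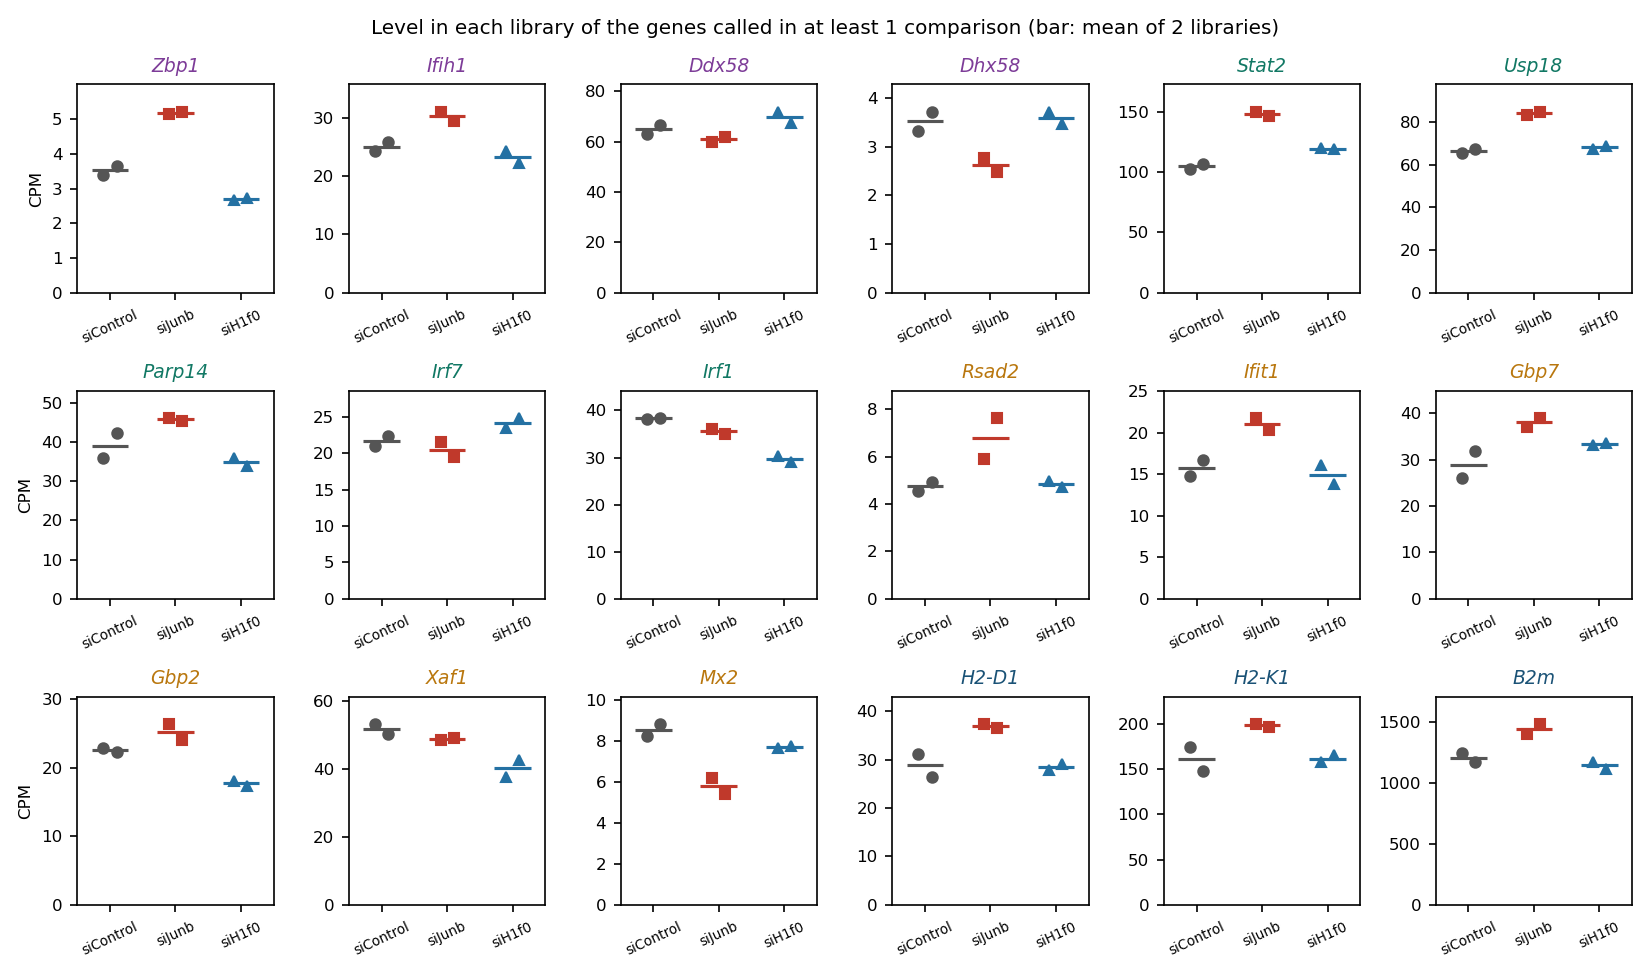
CPM in each of the 6 libraries (points) with the mean of each group (bar) for the 18 genes called in at least 1 comparison, each panel starting at 0. In the panels of Stat2, Usp18, Ifit1, B2m, H2-K1 and H2-D1 both siJunb points lie above the other 4, and in those of Irf1, Gbp2 and Xaf1 both siH1f0 points lie below the other 4.

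After the siRNA against H1f0, 3 of the 44 genes fell and 0 rose. The genes that fell were Irf1, Gbp2 and Xaf1, 6.82% of the tested members where 4.27% of all tested genes fell; 2.27% of all tested genes rose, and 6.55% were called in either direction. At an unadjusted p under 0.05 edgeR had 3 genes higher (10.8% of all tested genes) and 6 lower (12%), DESeq2 called 1 gene higher and limma-voom 0. The median log2 change was 0.01, and both siH1f0 libraries were above both controls in 8 genes (25.4% of all tested genes) and below in 10 (25.2%). Leaving out siControl 1 gave 5 genes higher and 5 lower, leaving out siControl 2 gave 9 and 10, leaving out a siJunb library gave 0 and 1, and leaving out a siH1f0 library gave 0 and 0.

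Irf1, a transcription factor gene that responds to interferon gamma and drives class I genes (chr11:53770014-53778374), measured 38.3 and 38.5 CPM in siControl, 36.1 and 35.1 in siJunb and 30.2 and 29.1 in siH1f0. Its siH1f0 libraries were the lowest, and the fall was 0.37 ± 0.06 (log2, adjusted p = 0.00712, edgeR). Gbp2, an interferon-induced GTPase gene (chr3:142620663-142638008), measured 22.9 and 22.4 CPM in siControl, 26.5 and 24.1 in siJunb and 18.0 and 17.4 in siH1f0, a fall of 0.36 ± 0.07 in siH1f0 (adjusted p = 0.022, edgeR). Xaf1, the gene of a pro-apoptotic protein that binds the caspase inhibitor XIAP (chr11:72301461-72313733), measured 53.3 and 50.1 CPM in siControl, 48.6 and 49.1 in siJunb and 37.7 and 42.6 in siH1f0, a fall of 0.36 ± 0.07 (adjusted p = 0.0196, edgeR).

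The Irf1 call was lost without either siH1f0 library (up to 0.124). Those of Gbp2 and Xaf1 were lost without any 1 siJunb or siH1f0 library (up to 0.216 and 0.229) and with the 4 libraries compared alone. Of the sensors, 0 of 8 were called in siH1f0, with a median of 0.04. The 6 antigen presentation genes also had 0 calls, with a median of -0.01. Stat2 was 1.14-fold above siControl in siH1f0 and just missed the threshold (0.19 ± 0.05, adjusted p = 0.0519, edgeR), and it passed under 6 of the alternatives. The other uncalled genes were within -0.38 (Zbp1, adjusted p = 0.105) and 0.24 (Eif2ak2).

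Set directly against each other, the knockdowns differed in 17 of the 44 genes, 13 of them lower and 4 higher in siH1f0 than in siJunb. These are 29.5% and 9.09% of the tested members, where 13.8% of all tested genes were lower and 12.2% higher (25.9% in either direction). The median log2 change was -0.09. Both siH1f0 libraries were below both siJunb libraries in 23 genes (36.3% of all tested genes) and above in 9 (35.4%). Leaving out 1 siJunb or siH1f0 library left 6 or 7 genes lower and 0 higher, and leaving out either control library gave 21 lower and 6 higher. Zbp1, Stat2, Gbp2 and B2m held without each library. This comparison uses no control library in its difference, but it shares its siJunb and siH1f0 values with the comparisons above and so is not separate support for them.

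Zbp1 differed most, with siH1f0 at 0.522 of the siJunb level (log2 -0.94 ± 0.12, adjusted p = 0.001, edgeR). Stat2 and Usp18 were each lower by 0.31 ± 0.05 (0.00212 and 0.00298), B2m by 0.34 ± 0.05 (0.00222), H2-D1 by 0.38 ± 0.08 (0.0102) and H2-K1 by 0.30 ± 0.07 (0.0203). Gbp2 was lower by 0.51 ± 0.07 (0.00126), Ifit1 by 0.50 ± 0.10 (0.00628), Rsad2 by 0.48 ± 0.14 (0.0359), Xaf1 by 0.28 ± 0.07 (0.0187) and Irf1 by 0.26 ± 0.06 (0.0104). The Rsad2 call was lost with scaling by total counts only and in limma-voom. Parp14, an ADP-ribosyltransferase gene (chr16:35831892-35871518), measured 35.9 and 42.3 CPM in siControl, 46.2 and 45.5 in siJunb and 36.0 and 34.0 in siH1f0, and was lower in siH1f0 than in siJunb by 0.39 ± 0.08 (adjusted p = 0.00856, edgeR).

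The cytosolic RNA sensors split in this comparison. Ifih1 was lower in siH1f0 than in siJunb by 0.38 ± 0.07 (adjusted p = 0.00528, edgeR), whereas Ddx58 was higher by 0.19 ± 0.06 (0.0396) and Dhx58 by 0.45 ± 0.14 (0.0464). The Ddx58 and Dhx58 calls were lost with a replicate block, and that of Dhx58 also in DESeq2 and limma-voom. The other genes higher in siH1f0 were Mx2, by 0.40 ± 0.11 (0.0232), and Irf7, by 0.24 ± 0.08 (0.0467), which was lost with a replicate block and in limma-voom. By role, 2 sensors were higher and 2 lower, 1 regulator was higher and 4 lower, 1 effector was higher and 4 lower, and 0 antigen presentation genes were higher and 3 lower.

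Genes around these in the pathway were taken from further lists, whose counts stand against the shares of all tested genes that rose or fell: 8.63% and 7.82% in siJunb, 2.27% and 4.27% in siH1f0, and 12.2% and 13.8% between the knockdowns. Of 16 tested genes that link sensing to interferon, 4 rose in siJunb and 1 fell: Tmem173 (STING, the adaptor of DNA sensing) by 0.36, Traf6 by 0.28, Myd88 by 0.24 and Mavs, the adaptor of RIG-I and MDA5, by 0.19, and Irf3, which binds interferon promoters, fell by 0.24. All 5 calls were lost without any 1 siJunb or siH1f0 library and with the 4 libraries compared alone. That of Irf3 was also lost without siControl 1 and in limma-voom. Those of Mavs and Myd88 were lost with total counts only, and that of Mavs with no count filter. The calls of Mavs, Myd88 and Irf3 were each lost with a replicate block. In siH1f0 0 of the 16 were called; against siJunb 2 were higher (among them Irf3, by 0.26) and 5 lower (Myd88, Traf6, Mavs, Tbk1 and Tlr7). The lower Tlr7 call rested on 8 and 12 counts in siJunb and 0 and 0 in siH1f0. The Mavs and Tbk1 calls against siJunb were lost with total counts only, with no count filter, in DESeq2 and with a replicate block. The calls of Irf3, Traf6, Mavs, Tbk1 and Tlr7 against siJunb were lost without any 1 siJunb or siH1f0 library. That of Myd88 was lost without siJunb 2 or either siH1f0 library. Tlr3, the endosomal receptor for double-stranded RNA, was at 34.6 to 37.8 CPM in all 6 libraries and was not called. Of 7 further genes of the oligoadenylate synthetase family and RNase L, which degrade RNA once double-stranded RNA is sensed, 0 were called in any comparison.

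Of 9 tested interferon receptor and kinase genes, 3 rose in siJunb: Ifngr2 by 0.35, the kinase Jak1 by 0.35 and Il10rb by 0.21. The Ifngr2 and Jak1 calls did not hold when either siJunb library was left out (adjusted p up to 0.0988, edgeR), and that of Il10rb without any 1 siJunb or siH1f0 library, with the 4 libraries alone, with total counts only and with a replicate block. Ifnar2, a chain of the type I interferon receptor, measured 52.6 and 50.01 CPM in siControl, 55.5 and 59.1 in siJunb and 40.0 and 42.5 in siH1f0. Ifnar2 fell by 0.32 in siH1f0 (adjusted p = 0.0213, edgeR), while Ifngr1 rose by 0.23 (0.0437). Both calls were lost without any 1 siJunb or siH1f0 library and with the 4 libraries alone. Between the knockdowns 1 of these 9 was higher in siH1f0 (Ifngr1, by 0.28) and 4 were lower. Those lower were Jak1 by 0.57, Ifngr2 by 0.49, Ifnar2 by 0.47 and Il10rb by 0.31. Over all alternatives this log2 change ranged from -0.60 to -0.52 for Jak1, from -0.53 to -0.44 for Ifngr2 and from -0.52 to -0.42 for Ifnar2. The Ifngr1 and Il10rb calls between the knockdowns were lost without some of the single libraries.

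Of 16 tested further antigen presentation genes, 3 rose in siJunb, namely Erap1 by 0.34, Tap2 by 0.30 and Nlrc5, the activator of class I genes, by 0.26. In siH1f0 H2-M3 rose by 0.41, and Nlrc5 and Calr fell by 0.27 and 0.24. The siJunb calls of Tap2 and Nlrc5 and the 3 siH1f0 calls were lost without any 1 siJunb or siH1f0 library (adjusted p up to 0.303, edgeR) and with the 4 libraries alone, the siH1f0 calls also with a replicate block, and the Erap1 call without either siJunb library (up to 0.107). Between the knockdowns 1 of these 16 was higher in siH1f0 and 9 lower, Nlrc5 by 0.53, which held without each library. Of 41 tested further interferon-stimulated genes, 5 rose and 3 fell in siJunb, 2 rose and 0 fell in siH1f0, and 5 were higher and 5 lower in siH1f0 than in siJunb. In either direction these are 8, 2 and 10 of 41 genes, where 16.5%, 6.55% and 25.9% of all tested genes were called.

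Markers of other cell types were low. Of 12 macrophage and leukocyte markers 6 passed the filter, Ptprc, Tyrobp and Ly6c2 had 0 counts in all libraries, and the list summed to 16.0 and 12.0 CPM in siControl, 16.1 and 16.4 in siJunb and 12.0 and 13.7 in siH1f0, mostly Cd14. One of them, Csf1r, rose in siJunb, from 0.253 and 0.228 to 0.591 and 0.691 CPM, and between the knockdowns 1 marker of this list was higher in siH1f0 (Lyz2) and 2 lower (Csf1r and Cd14); the part of such cells in the changes above was not tested. Of 4 dendritic cell markers 2 passed, Siglech had 0 counts, and the sum was 2.98 to 4.37 CPM. Of 6 endothelial markers 0 passed. Of 12 fibroblast markers 10 passed, with Thy1 and Lum left out by the filter, and the list summed to 11215 and 13179 CPM in siControl, 11302 and 11352 in siJunb and 13292 and 12789 in siH1f0. Pdgfra and Dcn rose in siJunb, by 0.27 and 1.68, and Col1a2 and Dcn rose in siH1f0, by 0.34 and 0.65. Between the knockdowns 2 fibroblast markers were higher in siH1f0 (Col1a2 and Fn1) and 4 lower (Pdgfra, Pdgfrb, Vim and Dcn), and their part in the results was not tested.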

How the data were processed

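Per the submitters' processing notes, HISAT2, Subread, featureCounts and the mm10 build (GRCm38) were used; their versions, the annotation, the strand setting and the handling of multi-mapping reads are not given in those sources. The deposited values are raw counts per gene symbol, and TPM were computed from them with the deposited gene lengths in bases. All 6 library columns were used. Groups come from the sample labels. The GRCm38.p6 gene table held all 45 members and gave their coordinates.

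Genes were tested with edgeR 4.0.16 in R 4.3.3 (TMM, filterByExpr, quasi-likelihood F test, group as the only term, all 6 libraries, 3 residual degrees of freedom) with Benjamini-Hochberg adjustment over 13427 genes. TMM factors ran from 0.979 to 1.02. CPM use the effective library size. The method was also run on simulated counts that had the same spread in every group. The siControl pair here differed more than the other pairs, so that simulation does not cover this difference. An exact permutation test of 2 against 2 cannot go below p = 0.333 (two-sided). The alternatives comprised other tools (DESeq2 1.42.0 and voom in limma 3.58.1), other scaling (RLE or total counts only), other filters (none, or a mean of 5 CPM or more), a fit to just the 4 libraries compared, a block for replicate number, and leaving out each library. In the last case the spread of a lone library was taken from the other groups.

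The members and lists were chosen with earlier results of these data known. Values for every library are given for members called in any comparison, the 5 double-stranded RNA sensors, the 3 highest and 3 lowest by TPM, and Ifnb1, Junb and H1f0; other lists give at most 6 called genes per comparison, by smallest p. Isg15, Ifnar2, Tlr3 and the called cell type markers were added after their values were seen. One gene that met the rule is not reported here.

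Exons of Dtx3l and Parp9 share 367 bases and those of Adar and Chrnb2 1365 on opposite strands, and those of Irf9 and Rnf31 share 123 on the same strand. Members of the H2, Gbp, Ifit, Oas and Mx families can share reads with close copies.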

Additional observations from a re-analysis of the deposited data

How the results depend on the processing

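Among the members and the called genes named from the pathway lists, the directions that reversed belonged to changes not called in the test as reported. With each library left out in turn, the log2 change in siJunb ranged from -0.102 to 0.0140 for Calr, from -0.0290 to 0.169 for Apol9b and from -0.0529 to 0.134 for H2-M3, with the ends set by the control libraries, and from -0.188 to 0.0263 for Iigp1, with the ends set by the siJunb libraries. In siH1f0 the control libraries set the ends for H2-D1 (-0.141 to 0.103), H2-K1 (-0.118 to 0.130, called by edgeR at both ends and so in opposite directions, with an adjusted p of 0.00765 at the lower end), Traf6 (-0.109 to 0.0915), Irf3 (-0.0638 to 0.107), Erap1 (-0.120 to 0.0152) and Tap2 (-0.0225 to 0.151), and the siH1f0 libraries those for Ifit1 (-0.186 to 0.0264). Leaving out a library aside, 6 of 11 member calls for siJunb, 1 of 3 for siH1f0 and 13 of 17 between the knockdowns held in every alternative that tested the gene. Zbp1, counted in the 6 and in the 13, averaged 3.80 CPM and was not tested with a mean of at least 5 CPM.

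With only the 4 libraries compared, 5 members were higher in siJunb, 1 was lower in siH1f0, and 21 were lower in siH1f0 than in siJunb; over all genes there were 1094, 325 and 6416 calls, against 2209, 879 and 3484. No count filter gave 15 members higher and 3 lower in siJunb, 2 higher in siH1f0 and 1921 calls over all genes for siH1f0. Members higher in siH1f0 numbered 1 with total counts only, with a mean of at least 5 CPM and with DESeq2. Total counts only moved the all-gene split of higher and lower calls from 1159 and 1050 to 884 and 1369 for siJunb, from 305 and 574 to 407 and 532 for siH1f0, and from 1637 and 1847 to 2222 and 1340 between the knockdowns, where 6 members were then higher and 12 lower and the median was -0.0423; members in siJunb stayed at 10 and 1. Members higher in siH1f0 than in siJunb numbered 2 with limma-voom. The longer ISRE was in 8 member windows. Replicate numbers are shared by label only: deviations of same-numbered libraries correlated at 0.0477, -0.0412 and 0.0627 across genes. The replicate block gave 9 members higher and 1 lower in siJunb, 0 and 3 in siH1f0, and 1 and 13 between the knockdowns, with 1684, 550 and 2919 calls over all genes.

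With each library left out in turn, members higher and lower ranged from 1 to 18 and from 0 to 5 in siJunb, from 0 to 9 and from 0 to 10 in siH1f0, and from 0 to 6 and from 6 to 21 between the knockdowns. The members' medians ranged from 0.0567 to 0.106, from -0.0402 to 0.0142 and from -0.0967 to -0.0855, and calls over all genes from 352 to 5521, from 116 to 4932 and from 1304 to 6435. Calls over all genes rose in all 3 comparisons when either control library was left out. In those fits the spread came from the siJunb and siH1f0 pairs alone. Over all genes the median log2 difference between replicate libraries was 0.129 for siControl, 0.0572 for siJunb and 0.0587 for siH1f0. The part of this difference in spread in the rise was not tested.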

Other observations

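Negative regulators of interferon signalling were measured beside the genes above. Socs3, a feedback inhibitor of Jak kinases, measured 33.8 and 34.5 CPM in siControl, 50.5 and 47.0 in siJunb and 31.0 and 28.8 in siH1f0. The siJunb libraries stood above the other 4, with a rise of 0.51 ± 0.06 over siControl (adjusted p = 0.0018, edgeR), and siH1f0 was lower than siJunb by 0.71 ± 0.06 (0.000168). Of the 9 tested genes of this list, 1 rose and 1 fell in siJunb (Irf2bp2, by 0.21), 0 were called in siH1f0, and 1 was higher and 1 lower between the knockdowns.

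Among 41 tested further interferon-stimulated genes, the 5 that rose in siJunb included Mlkl, the executioner of necroptosis, by 0.42, which held without each library (adjusted p up to 0.0444, edgeR), and Lgals9 and Mov10 by 0.23 each, which were lost without any 1 siJunb or siH1f0 library. Those that fell were Uba7, the activating enzyme for ISG15, by 0.34, Tor3a by 0.26 and Ifi27l2a, whose span on chromosome 12 contains Ifi27, by 1.71 from 0.655 and 0.896 CPM in siControl to 0.304 and 0.146 in siJunb. These 3 calls were lost without either siJunb library (up to 0.147). In siH1f0 Iigp1 rose by 0.38 and Apol9b by 0.29, both lost without any 1 siJunb or siH1f0 library (up to 0.309).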
